A study of Homo sapiens with 6 samples.

Results

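The insulin and insulin-like growth factor (IGF) receptors, their adaptors and the IGF-binding proteins were examined as a group of 10 genes, *IGF1R*, *IGF2R*, *INSR*, *IRS1*, *IRS2*, *IGFBP1*, *IGFBP3*, *IGFBP4*, *IGFBP6*, and *IGFBP7*. Members were found by matching the Ensembl identifiers of the expression table to these symbols, which gave 9 of its 29483 genes. *IGFBP1* was not analysed here. Of the 9 genes, 8 had a mean of at least 0.5 FPKM (reads scaled by gene length and by the depth of the library) over the libraries and were tested.

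The 6 libraries were made from HK-2, an established human cell line derived from the proximal tubule of the kidney. All cells grew in medium with 25 mM D-glucose (high glucose) for 7 days. To the 3 replicates of the case group 10 μM TEPP-46 was then added, a small molecule that drives pyruvate kinase M2 into its active tetramer, and they were kept with it for 1 day with high glucose still present. The 3 replicates of the control group were not given TEPP-46. There was no group in low glucose and no group of another cell line. The comparison is therefore of this line with and without TEPP-46, kept in high glucose. The paper's methods name no vehicle for the control group, and effects of a vehicle and of TEPP-46 cannot be told apart here. Libraries rested on 17378710 to 18634891 reads in the control group and on 15363254 to 16711934 reads in the case group.

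Insulin and the IGFs act through the related receptor tyrosine kinases INSR and IGF1R, which phosphorylate the adaptors IRS1 and IRS2 and so recruit phosphoinositide 3-kinase and AKT. IGF2R, also known as the cation-independent mannose 6-phosphate receptor, has no kinase, takes IGF2 from the cell surface for degradation and sorts lysosomal enzymes. The IGF-binding proteins are secreted, hold the IGFs and control their access to the receptors, and in the kidney the tubule responds to both insulin and the IGFs.

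The label of the cells was checked against marker genes first. Of 12 defining genes of the proximal tubule, 9 were in the table and none reached the level for testing. The most abundant, *GGT1*, was at 0.175 ± 0.0269 FPKM in the control libraries and 0.149 ± 0.0521 in the case libraries (SD, n = 3), and the endocytic receptor gene *LRP2* was at 0 in every library except 1 control library. General epithelial genes were present, with *KRT8*, *KRT18*, and *KRT19* between 158 and 384 FPKM in every library. The kidney lineage factor genes *PAX8* and *PAX2* were at most 0.194 and 0.0344 FPKM. The data thus held general epithelial genes, whereas the defining proximal tubule genes and these 2 factor genes were at or near 0. Distal nephron, endothelial, and hepatocyte markers stayed at or below 0.323 FPKM in every library. Of the podocyte, leukocyte, and mesenchymal markers, *PODXL* and *CD14* were lower (adjusted P-values of 0.0309 and 0.0384 by limma) and *VIM* was higher (adjusted P-value = 0.0204) in the case group. Of the 6 tested epithelial genes, *CDH1* was lower (log2(FC) = -0.64, adjusted P-value = 0.0156, limma) and the other 5 did not pass. The log2(FC) was above 0 in 3 of the 6, with a median of -0.08. *PODXL*, *CD14*, and *VIM* made up most of the summed levels of their lists. The summed leukocyte list (2 of 4 genes) was at 0.907, 0.621, and 0.915 FPKM in the control libraries and 0.286, 0.231, and 0.306 in the case libraries, the podocyte list (2 of 3 genes) at 2.29, 2.82, and 2.73 and at 1.51, 1.83, and 1.49, and the mesenchymal list (4 of 5 genes) at 91.5, 96.4, and 97.5 and at 150, 119, and 162. The other genes of these lists, *NPHS1*, *CD68*, *PDGFRB*, *COL1A2*, and *COL1A1*, were at most 0.350 FPKM. The part of these shifts in the results below was not tested, and in bulk RNA fewer expressing cells and less RNA per cell cannot be told apart.

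Case replicate 2 stood nearer to the control group than the other case replicates. On the first principal component, which held 37.2% of the variance, it lay at 9.5, against 30.5 and 34.4 for case replicates 1 and 3 and -22.9 to -27.8 for the control libraries. The median SD between replicates on the log2 scale was 0.19 in the case group and 0.09 in the control group. Results that rest on single libraries are therefore given with and without them.

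Of the 8 tested members, 1 was upregulated (*IGFBP3*), 2 were downregulated (*IGF1R* and *IGF2R*), and 5 did not pass an adjusted P-value of 0.05. Among all 13599 tested genes, 7.34% were upregulated and 5.84% were downregulated by the same test, which was limma with Benjamini-Hochberg adjustment over all of them. The study describes the replicates as independent and treated separately, while the labels do not name the cultures, and P-values measure the spread between these samples. The median log2 fold change was -0.26 over the 8 tested members and -0.00 over all tested genes. In 4 members every case library lay below every control library, and in 1 member every case library lay above, while 20.4% and 19.5% of all tested genes showed these patterns.

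**Figure D1:**
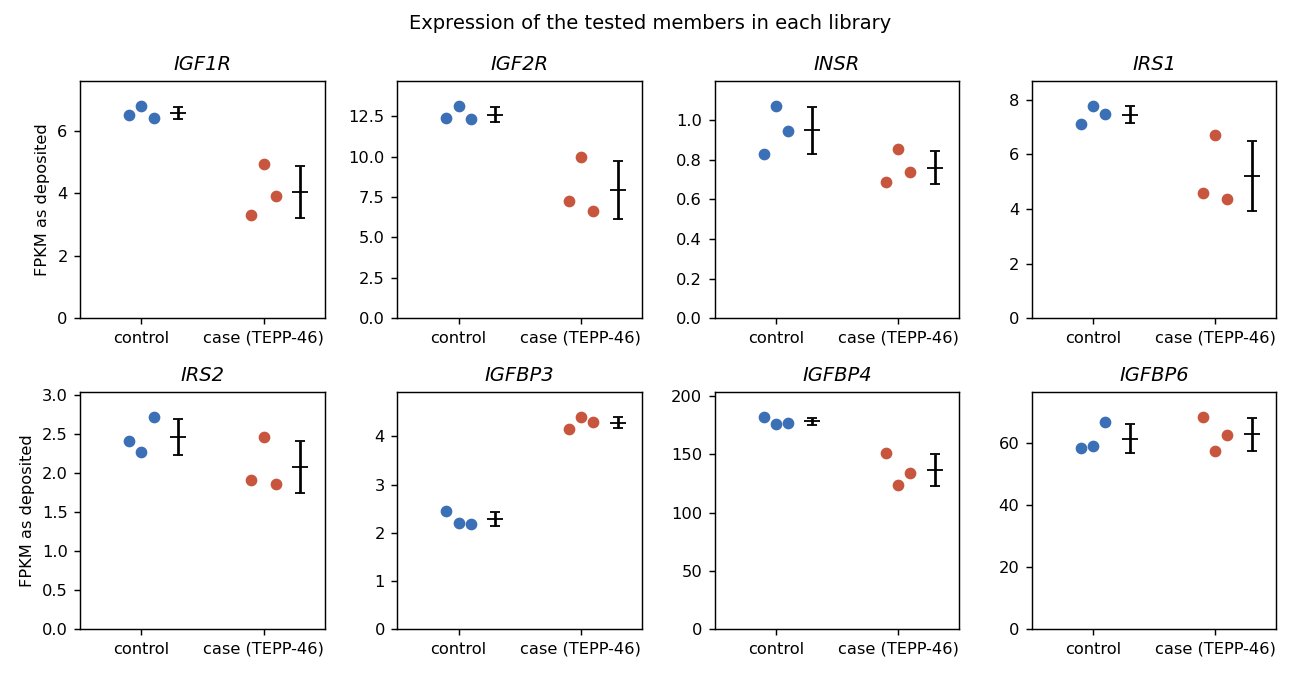
Expression in FPKM as deposited (vertical axes, each from 0) of the 8 tested members in the 3 control and 3 case libraries. Coloured points are libraries and black bars are the mean ± SD of each group. *IGFBP3* was higher in all case libraries, whereas *IGF1R*, *IGF2R*, *IRS1*, and *IGFBP4* were lower in all of them, and case replicate 2 (middle red point) lay nearest to the control group for *IGF1R*, *IGF2R*, and *IRS1*.

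Both IGF receptor genes were downregulated, although a correction for gene length, described further on, brought *IGF1R* to -0.32 and ended the call of *IGF2R* (-0.27, adjusted P-value = 0.144, limma). *IGF1R* (ENSG00000140443, GRCh38 chr15:98648539-98964530, plus strand) encodes the receptor kinase for IGF1 and IGF2. It was at 6.51, 6.79, and 6.43 FPKM in the control libraries and at 3.31, 4.94, and 3.91 FPKM in the case libraries. The groups did not overlap, and case replicate 2 was the highest of the case libraries. The log2(FC) was -0.63 with a standard error of 0.13 and a 95% confidence interval of -0.92 to -0.34 (adjusted P-value = 0.0226, limma), and 747 to 1643 reads per library stood behind it. The call was lost without control replicates 1, 2, or 3 (adjusted P-values of 0.0912, 0.102, and 0.0878) and without case replicate 3 (0.0867), although the log2(FC) stayed between -0.75 and -0.52.

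*IGF2R* (ENSG00000197081, chr6:159969082-160113507, plus strand) was the most abundant receptor of the group. Its level was 12.4, 13.1, and 12.3 FPKM in the control libraries and 7.24, 10.0, and 6.62 FPKM in the case libraries, again without overlap and with case replicate 2 nearest to the control group. Its log2(FC) was -0.60 with a standard error of 0.14 and an interval of -0.92 to -0.28 (adjusted P-value = 0.0312, limma). The call held without case replicate 2 (adjusted P-value = 0.00678) and was lost without any of control replicates 1, 2, and 3 (0.105, 0.120, and 0.101) or case replicates 1 and 3 (0.0548 and 0.0958). An exon of the pseudogene *CHP1P2* overlaps *IGF2R* on the same strand, and it was at most 0.2389 FPKM. The antisense *AIRN* was at most 0.0137 FPKM.

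The ratio of *IGF2R* to *IGF1R* levels, per length, was 1.90, 1.92, and 1.91 in the control libraries and 2.19, 2.03, and 1.69 in the case libraries. The ranges overlapped, so the data showed no shift of one IGF receptor transcript against the other beyond the spread of the case group.

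*INSR* (ENSG00000171105, chr19:7112255-7294414, minus strand), the insulin receptor gene, was the least abundant of the tested members. It was at 0.832, 1.07, and 0.947 FPKM in the control libraries and at 0.687, 0.853, and 0.741 FPKM in the case libraries, on 119 to 200 reads per library. The groups overlapped by the value of case replicate 2 alone. The log2(FC) of -0.22 had an interval of -0.67 to 0.24 (adjusted P-value = 0.485, limma), which includes a decrease as large as that of *IGF1R* as well as no change.

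*IGF1R* transcripts exceeded *INSR* transcripts in every library. The ratio of the levels was 7.83, 6.36, and 6.79 in the control group and 4.82, 5.79, and 5.28 in the case group, a drop from 6.99 ± 0.756 to 5.30 ± 0.489 (SD, n = 3) without overlap. An exact permutation test of 3 against 3 libraries (two-sided) cannot give a p below 0.1, and this ratio gave that value.

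The 300-base windows around the transcription start, 250 bases before it and 50 bases after it, were available from RefSeq (GRCh38.p14) for 8 of the 10 members. Upstream parts are shown for both downregulated receptors, because they moved together and differ in the letters searched for. Capitals mark GGGCGG (the GC box) in *IGF1R* and CACGTG (the E-box) in *IGF2R*. The upstream part of *IGF1R* is chr15:98648289-98648538 and that of *IGF2R* is chr6:159968832-159969081, both on the plus strand.

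IGF1R: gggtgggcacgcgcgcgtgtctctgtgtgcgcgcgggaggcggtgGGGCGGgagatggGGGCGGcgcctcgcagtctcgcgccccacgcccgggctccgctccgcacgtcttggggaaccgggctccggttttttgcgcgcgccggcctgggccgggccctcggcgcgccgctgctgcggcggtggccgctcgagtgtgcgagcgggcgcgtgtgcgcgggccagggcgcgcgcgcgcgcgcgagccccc

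IGF2R: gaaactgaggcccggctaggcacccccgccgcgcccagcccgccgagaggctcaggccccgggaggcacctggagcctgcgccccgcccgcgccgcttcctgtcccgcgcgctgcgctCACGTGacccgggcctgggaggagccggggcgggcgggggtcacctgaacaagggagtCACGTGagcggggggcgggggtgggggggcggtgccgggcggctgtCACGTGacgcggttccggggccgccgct

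The *IGF2R* window held CACGTG at 3 places, with first bases at -132, -74, and -28 relative to the start. Of all 35116 RefSeq promoters of this length, 7.3% held the letters at least once and 0.094% held them 3 or more times. They were absent from the *IGF1R* window, which held GGGCGG at -205 and -192. The *IGF2R* window also held GGGCGG on either strand at 6 places, from -167 to -38, left in lower case above. All 8 member windows held GGGCGG on either strand, as did 45.0% of all promoters, and the upstream GC content of the 5 receptors and adaptors was 76.4% to 81.2%, that of *IGFBP3*, *IGFBP4*, and *IGFBP6* was 76.0%, 71.6%, and 61.2%, and the median of all promoters was 58.0%. A match of letters is a description and not a binding site.

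Neither adaptor passed the test as set. *IRS1* (ENSG00000169047, chr2:226731312-226799820, minus strand) was at 7.11, 7.75, and 7.49 FPKM in the control libraries and at 4.58, 6.69, and 4.38 FPKM in the case libraries. All case libraries were below all control libraries, with case replicate 2 close to them. With a standard error of 0.15 the log2(FC) was -0.46, with an interval of -0.79 to -0.12 (adjusted P-value = 0.0733, limma). Without case replicate 2 it was -0.62 (adjusted P-value = 0.00894, limma), and without any other single library it did not pass. With voom on the recovered reads it passed (-0.46, adjusted P-value = 0.0240). It also did with TPM (-0.65, adjusted P-value = 0.0358), a scaling that moved the median of all tested genes by -0.19, and it did not with the length correction (-0.25, adjusted P-value = 0.186).

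*IRS2* (ENSG00000185950, chr13:109752695-109786583, minus strand) was the less abundant adaptor. It was at 2.41, 2.27, and 2.72 FPKM in the control libraries and at 1.91, 2.47, and 1.86 FPKM in the case libraries, and the groups overlapped. The log2(FC) was -0.17 with an interval of -0.49 to 0.15 (adjusted P-value = 0.427, limma). The ratio of *IRS1* to *IRS2* levels went from 3.04 ± 0.340 to 2.48 ± 0.190 (SD, n = 3) without overlap, for which the exact permutation test gave its smallest value of 0.1. The *IRS2* window held the insulin response core AAAACAA at -41 on the opposite strand, which 7.5% of all promoters held on either strand, and the *IRS1* window held CACGTG at 36 bases after the start.

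The receptors and adaptors shared a feature that had no part in their selection, the summed length of their exons, by which FPKM is scaled. The lengths behind their FPKM values were 13509 bases for *IGF1R*, 14911 for *IGF2R*, 10451 for *INSR*, 9953 for *IRS1*, and 8138 for *IRS2*, whereas the tested binding protein genes had 1279 to 4571 bases. In these libraries the change followed length. The median log2(FC) of all tested genes was 0.15 in the shortest of 10 length classes and -0.29 in the longest class (9620 to 44058 bases), which holds *IGF1R*, *IGF2R*, *INSR*, and *IRS1*. Among the 2299 tested genes of at least 8000 bases, 14.5% were downregulated and 1.65% were upregulated, against 4.07% and 8.50% of the 11300 shorter genes.

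The size of this trend differed between case libraries in the same order as for *IGF1R*. The longest class had a median of -0.43 in case replicate 1, -0.12 in case replicate 2, and -0.29 in case replicate 3 against the mean of the control libraries, and *IGF1R* was at -0.84, -0.37, and -0.67. *IGF2R* was at -0.66, -0.29, and -0.85 and *IRS1* at -0.56, -0.12, and -0.68, so that both were lowest in case replicate 3. When each library was corrected for a smooth trend of the log2 value with length, a step added after the data had been seen, *IGF1R* remained downregulated at -0.32 (adjusted P-value = 0.0421, limma). *IGF2R* did not remain so at -0.27 (adjusted P-value = 0.144), and *IRS1* moved to -0.25, *INSR* to 0.01, and *IRS2* to -0.03. What produced the trend with length was not tested.

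**Figure D2:**
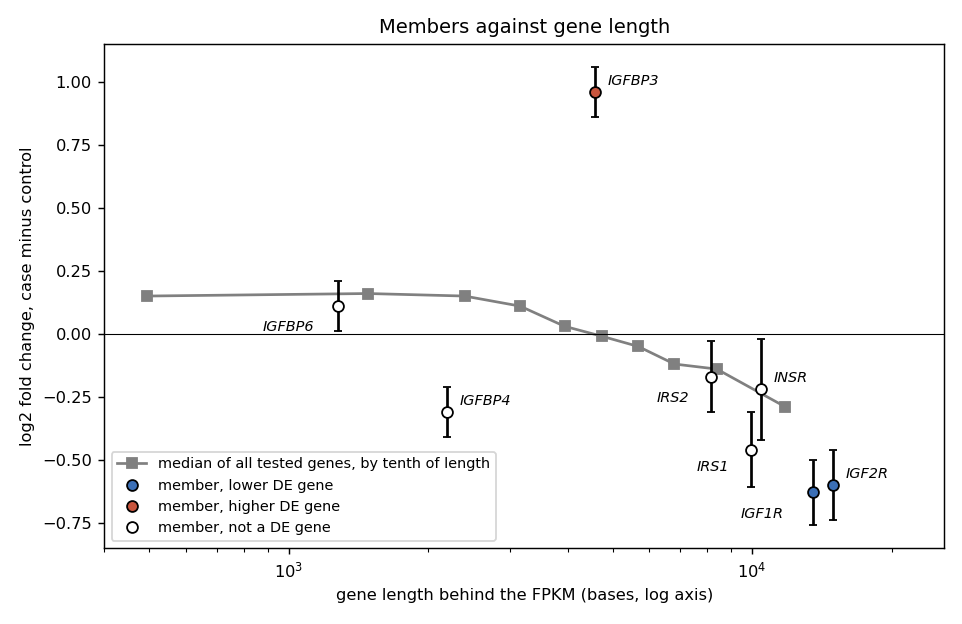
Log2 fold change of the case group against the control group (vertical axis) by the gene length behind the FPKM (horizontal log axis, bases). Grey squares are medians of all tested genes in 10 classes of length, drawn at the median length of each, circles are the 8 tested members with their standard errors, and fill gives the call. The grey line falls from 0.15 to -0.29. *INSR* and *IRS2* lie near it, *IGF1R*, *IGF2R*, *IRS1*, and *IGFBP4* lie below it, and *IGFBP3* lies far above it.

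Among the binding proteins, *IGFBP3* was the only upregulated member. *IGFBP3* (ENSG00000146674, chr7:45912245-45921874, minus strand) encodes the main IGF carrier of the blood and is a known target of p53. It was at 2.44, 2.21, and 2.19 FPKM in the control libraries and at 4.16, 4.40, and 4.30 FPKM in the case libraries. The groups were far apart, and each was tight, with an SD of 0.140 and 0.121. Its log2(FC) was 0.96 with a standard error of 0.10 and an interval of 0.73 to 1.19 (adjusted P-value = 0.00430, limma), or 1.94-fold, and was higher than that of 98.5% of all tested genes.

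*IGFBP3* changed alike in the 3 case libraries. Relative to the mean of the control libraries it was at 0.97, 0.95, and 0.96 on the log2 scale in case replicates 1, 2, and 3, although case replicate 2 was closest to the control group overall. It remained upregulated without any 1 of the 6 libraries (adjusted P-values up to 0.0378, limma), and with the length correction its log2(FC) was 0.96. The reads behind it were few, 174 to 208 in the control libraries and 302 to 323 in the case libraries.

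The primers that the study used to measure *IGFBP3* by quantitative PCR are shown with the upstream part of its promoter, because they place the amplified stretch within the gene. Both matched the genome of the files (GRCh38), the forward primer at chr7:45917246-45917268 in exon 2 and the reverse primer at chr7:45914883-45914903 in exon 4 of the transcript *IGFBP3-201*, both in coding sequence, so that the product spans introns. The upstream part, chr7:45921273-45921522 on the minus strand from RefSeq (GRCh38.p14), has TATANA and GGGCGG on either strand in capitals. It lies inside the gene span given above, since the RefSeq start that set the window differs from the start of that span.

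IGFBP3 forward primer: ctcagagcacagatacccagaac

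IGFBP3 reverse primer: aggctgcccatacttatccac

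IGFBP3: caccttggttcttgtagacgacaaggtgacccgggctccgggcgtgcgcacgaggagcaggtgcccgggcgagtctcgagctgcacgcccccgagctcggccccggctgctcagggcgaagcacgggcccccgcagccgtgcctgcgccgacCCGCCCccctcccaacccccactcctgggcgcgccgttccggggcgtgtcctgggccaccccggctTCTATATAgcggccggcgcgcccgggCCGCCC

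The *IGFBP3* window held TATANA at -30 and, read on the opposite strand, overlapping it at -32. These letters were searched for after the sequences had been seen. Only *IGFBP4* of the other 7 member windows held them, at -29, and 19.0% of all promoters did. Neither TGATGNAA (ATF4) nor TGANTCA (AP-1), searched on both strands, was found in any member window, against 3.6% and 7.7% of all promoters.

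*IGFBP4* (ENSG00000141753, chr17:40443450-40457725, plus strand) encodes a binding protein that restrains IGF action until it is cleaved, and it was the most abundant member. It was at 182, 176, and 177 FPKM in the control libraries and at 151, 124, and 134 FPKM in the case libraries, on 4392 to 7442 reads per library. The groups did not overlap. The log2(FC) was -0.31 with a standard error of 0.10 and an interval of -0.55 to -0.07 (adjusted P-value = 0.0812, limma), so it was not a DE gene.

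*IGFBP4* passed the test under several of the other settings. It did so with the length correction (-0.46, adjusted P-value = 0.0146, limma), with voom on the recovered reads (-0.31, adjusted P-value = 0.0440), with quantile normalization (-0.52, adjusted P-value = 0.00463), and with FPKM as deposited (-0.39, adjusted P-value = 0.0258). With TPM (each library rescaled to the same FPKM sum) it was -0.51 (adjusted P-value = 0.00905), although this scaling alone moved the median of all tested genes by -0.19. It also passed without case replicate 1 (-0.41, adjusted P-value = 0.0172). The log2(FC) was between -0.52 and -0.22 in all of the alternatives tried.

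*IGFBP6* (ENSG00000167779, chr12:53097436-53102345, plus strand), whose product prefers IGF2, did not pass the test. It was at 58.4, 58.9, and 66.7 FPKM in the control libraries and at 68.3, 57.5, and 62.4 FPKM in the case libraries, with overlap. The log2(FC) of 0.11 had an interval of -0.13 to 0.35 (adjusted P-value = 0.503, limma), an interval that lies below the one of *IGFBP3*, and the value was -0.06 after the length correction. Its window held the FOXO letters GTAAACA at -186, as 3.4% of all promoters did on either strand. This position is relative to the RefSeq start, which lies inside the gene span given above.

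*IGFBP7* (ENSG00000163453, chr4:57030773-57110385, minus strand) was not detectable above a few reads at this depth. It had 0, 1, and 2 reads in the control libraries and 1, 1, and 2 reads in the case libraries, at most 0.0675 FPKM, and was not tested. Its exons overlap *POLR2B* on the opposite strand, which was at 17.4412 to 23.5916 FPKM, and whether the reads were counted by strand is not given in the sources used here.

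**Figure D3:**
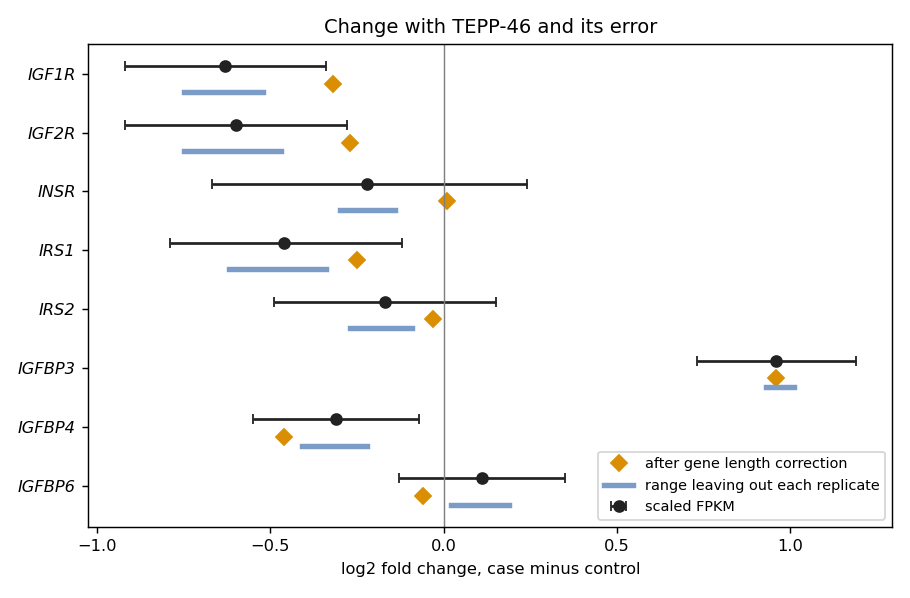
Log2 fold change of the case group against the control group (horizontal axis) for the 8 tested members. Black circles with bars are limma estimates with 95% confidence intervals, orange diamonds are values after the gene length correction, and blue bars span the values obtained when each of the 6 replicates was left out in turn. All 3 marks coincide for *IGFBP3* near 0.96, the length correction moved *IGF1R* from -0.63 to -0.32 and *IGF2R* from -0.60 to -0.27, and it moved *IGFBP4* the other way, from -0.31 to -0.46.

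The shares of the binding protein transcripts differed between the groups. Summed over the 4 member binding proteins, the level was 242 ± 4.61 FPKM in the control libraries and 204 ± 18.8 FPKM in the case libraries (SD, n = 3). *IGFBP4* made up 74.9%, 74.2%, and 72.0% of it in the control libraries and 67.6%, 66.7%, and 66.8% in the case libraries. The share of *IGFBP6* was 25.4% ± 1.57 and 30.8% ± 0.266, and that of *IGFBP3* was 0.944% ± 0.0590 and 2.12% ± 0.251. None of these shares overlapped between the groups, and the exact permutation test gave its smallest p of 0.1 for each. *IGFBP6* had a larger share although its own level did not pass the test, and *IGFBP3* was a minor part of the binding protein transcripts in both groups.

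In the control group the members ranked, per length, as *IGFBP4*, *IGFBP6*, *IGF2R*, *IRS1*, *IGF1R*, *IRS2*, *IGFBP3*, *INSR*, and *IGFBP7*. Only *IRS2* and *IGFBP3* overlapped among neighbours in this order. *IGFBP4* had a higher mean than 98.4% of the tested genes and *INSR* than 12.3%. In the case group *IGFBP3* stood above *IGF1R*, and the neighbours from *IGF2R* through *IRS1* and *IGFBP3* to *IGF1R* overlapped each with the next.

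Ligand transcripts were at or near 0 where they were measured. *IGF2* was between 0.0199 and 0.0520 FPKM, on at most 5 reads, and shares exons with other transcripts of its locus. *INS*, *IGF1*, and *IRS4* were not analysed here. *INSRR*, an orphan receptor of the insulin receptor family, and *IGFALS*, which stabilizes IGF complexes in blood, had at most 5 reads in a library, and *IGFBP5* was listed at 0 in every library. *IGFALS* shares exons with *SPSB3* on the same strand, so how its reads were assigned is uncertain.

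Of the other family genes, *IGFBPL1* and *IGFBP2* reached the level for testing. *IGFBPL1*, which encodes a binding protein-like factor, was at 15.8, 18.1, and 14.4 FPKM in the control libraries and at 8.65, 12.4, and 7.32 FPKM in the case libraries and was downregulated (log2(FC) = -0.71, standard error 0.18, adjusted P-value = 0.0389, limma). This call held when case replicate 2 was left out (adjusted P-value = 0.00936) and was lost when any other single library was left out: control replicates 1, 2, and 3 (0.118, 0.141, and 0.0929) and case replicates 1 and 3 (0.0698 and 0.116). *IGFBP2* was at 2.49, 2.08, and 1.99 FPKM in the control libraries and at 3.54, 2.47, and 3.65 FPKM in the case libraries. With a log2(FC) of 0.60 and an adjusted P-value of 0.0656 (limma) it did not pass, except without case replicate 2 (adjusted P-value = 0.0115) and with voom (0.0287). Of the IGF2 mRNA-binding proteins, *IGF2BP2* (-0.14) and *IGF2BP3* (-0.10) did not pass, and *IGF2BP1* was at most 0.147 FPKM.

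Among the 7 pathway lists, genes that act on the binding proteins had the largest share upregulated, against 7.34% of all tested genes. The lists were chosen with earlier results of these data known, so this order is only a description. Of 8 listed proteases of the binding proteins and their inhibitors, 4 were tested and 3 of them were upregulated, with a median log2(FC) of 0.63 against -0.00 over all tested genes. With no filter on low values 1 was upregulated, when 1.18% of all genes tested in that setting were. *STC2*, which encodes stanniocalcin-2, an inhibitor of the IGFBP4-cleaving protease PAPP-A, was at 29.1, 29.1, and 28.0 FPKM in the control libraries and at 43.9, 50.8, and 43.3 FPKM in the case libraries. Its log2(FC) was 0.75 with a standard error of 0.08 (adjusted P-value = 0.00430, limma), and like *IGFBP3* it remained upregulated without any 1 library.

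*HTRA1*, a secreted serine protease that cleaves binding proteins, was at 8.43, 7.45, and 7.46 FPKM in the control libraries and at 13.6, 10.3, and 12.6 FPKM in the case libraries (log2(FC) = 0.71, adjusted P-value = 0.0201, limma). *CTSD*, the lysosomal protease cathepsin D, was at 26.6, 26.6, and 22.9 FPKM and at 34.3, 32.0, and 39.8 FPKM (log2(FC) = 0.55, adjusted P-value = 0.0226), with a log2(FC) of 0.35 under TPM. Neither held without control replicates 1, 2, or 3 or case replicate 3, with adjusted P-values up to 0.0922 for *HTRA1* and 0.0946 for *CTSD*. The fourth tested gene, *STC1*, did not pass (0.07). The protease genes *PAPPA* and *PAPPA2* themselves were at most 0.0337 and 0.257 FPKM, *ADAM12* was at most 0.504 FPKM, and *ADAM28* was listed at 0.

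Downstream of the receptors, the 18 tested genes of receptor-proximal signalling had a median log2(FC) of -0.01. In the main fit 1 of them was downregulated and none upregulated, a share close to the 5.84% downregulated among all tested genes. With the length correction 2 were upregulated and 1 downregulated, when 6.42% and 4.46% of all tested genes were. With voom 2 were upregulated and 3 downregulated, when 9.54% and 11.1% of all tested genes were. *SHC1*, the adaptor that links receptors to RAS, was at 205, 206, and 214 FPKM in the control libraries and at 161, 155, and 120 FPKM in the case libraries (log2(FC) = -0.46, adjusted P-value = 0.0448, limma). Its call was lost without control replicates 1, 2, or 3 or case replicate 3 (adjusted P-values up to 0.142). The feedback inhibitors *SOCS1*, *SOCS3*, *GRB10*, and *GRB14* and the phosphatase gene *PTPN1* did not pass in the main fit.

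Of the 26 tested genes of the PI3K-AKT-mTOR core, 5 were downregulated and 1 was upregulated, against 5.84% and 7.34% of all tested genes, with a median of -0.24. The downregulated genes were *MTOR* (-0.56), *RPTOR* (-0.48), which encodes its partner in complex 1, *PIK3CB* (-0.51), a catalytic subunit of phosphoinositide 3-kinase, *GSK3B* (-0.45), a kinase inhibited by AKT, and *PHLPP1* (-0.56), a phosphatase that removes phosphate from AKT. The list thus held lower positive and negative regulators alike. *EIF4EBP1*, whose product represses translation until mTOR phosphorylates it, was upregulated from 224 ± 13.4 to 314 ± 39.2 FPKM (log2(FC) = 0.56, adjusted P-value = 0.0265, limma). Its log2(FC) was smaller under other scalings, 0.29 with quantile normalization, 0.36 with TPM, and 0.38 with the length correction. All 6 calls were lost without control replicates 1, 2, or 3 or case replicate 3, with adjusted P-values up to 0.0989 for *MTOR*, 0.119 for *EIF4EBP1*, 0.128 for *RPTOR*, 0.139 for *GSK3B*, 0.150 for *PIK3CB*, and 0.189 for *PHLPP1*, which was also lost without case replicate 1. Like the receptors, 15 of the 26 genes had at least 8000 bases, among them 4 of the 5 that were downregulated, and after the length correction 1 gene was downregulated and 1 upregulated, with a median of -0.07, when 4.46% and 6.42% of all tested genes were.

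Of 9 tested FOXO factors and targets, *FOXO4*, one of the transcription factors that AKT holds out of the nucleus, was downregulated (2.51 ± 0.121 to 1.60 ± 0.180 FPKM, log2(FC) = -0.55, adjusted P-value = 0.0273, limma), and none was upregulated. With 1 gene of 9 called, against 13.2% of all tested genes in either direction, nothing is read from this count. This call was lost without control replicates 1, 2, or 3 or case replicate 3 (adjusted P-values up to 0.119). *IRS2* and *IGFBP1* are classical FOXO targets, and *IRS2* did not pass as given above. The mannose 6-phosphate sorting genes, with which *IGF2R* works, had 0 of 7 tested genes past the threshold, where 13.2% of all tested genes were, and a median of -0.09. *M6PR*, the cation-dependent sorting receptor gene, was at 21.8, 20.5, and 19.4 FPKM in the control libraries and at 17.8, 21.3, and 15.6 FPKM in the case libraries, with overlap (log2(FC) = -0.11, interval -0.37 to 0.16, adjusted P-value = 0.552, limma). The adaptor gene *GGA2* was at -0.12.

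**Figure D4:**
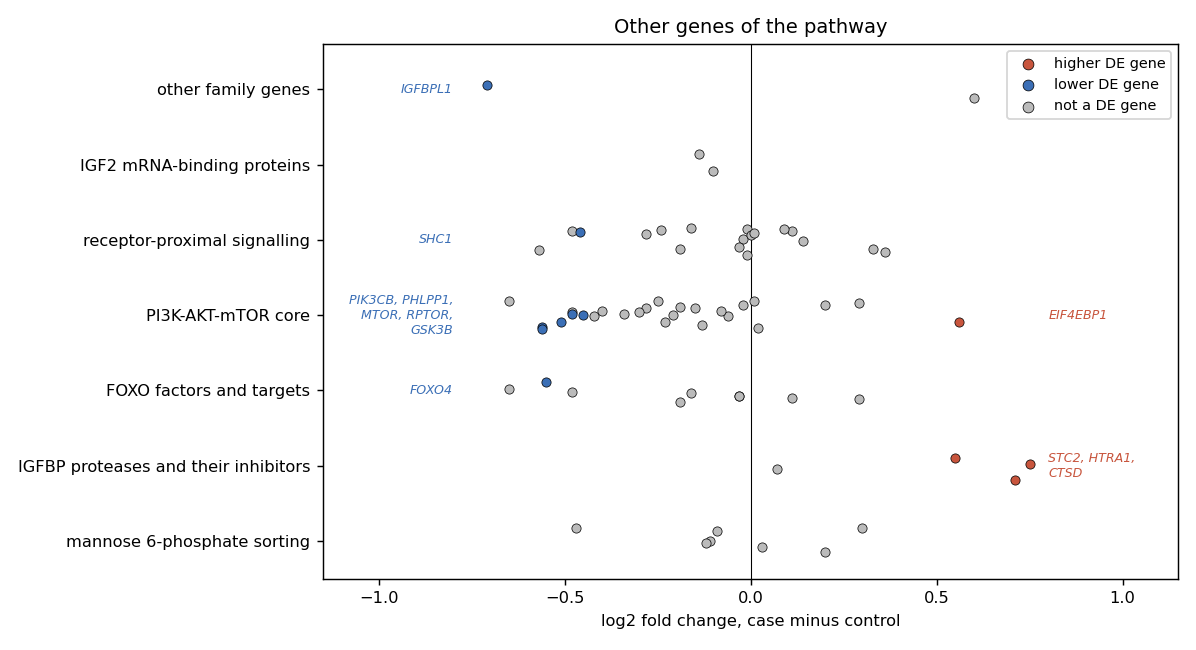
Log2 fold change of the case group against the control group (horizontal axis) for the tested genes of 7 lists (rows). Each point is a gene, coloured by its call, with the DE genes named at the sides and a random vertical offset. The protease and inhibitor list has 3 of 4 genes upregulated, and the PI3K-AKT-mTOR core has 5 downregulated genes and 1 upregulated gene.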

How the data were processed

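RNA was sequenced in 6 libraries, 3 of each group. Per the labels and the paper's methods, the authors filtered reads, aligned them to GRCh38.p13 with HISAT2 (version 2.1.0) and counted them per gene with HTSeq (version 0.6.0). The deposited values are FPKM, the counts divided by gene length and library reads, 1 column per library. The strandedness and RNA selection are not given in the sources used here.

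All 27922 genes above 0 had values that were whole multiples of the worth of 1 read (whole reads to within 0.002), which gave depth, reads per gene, and gene length. For 10951 genes with fewer than 30 reads in every library, *IGFBP7* among them, the annotated exon length set the multiple. The length was a whole number for 99.1% of the genes checked. Symbols and positions came from a GENCODE annotation of GRCh38.

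Each library was divided by its median-of-ratios factor (0.944 to 1.04), 0.1 was added to the FPKM, and log2 values were tested in R 4.3.3 with limma 3.58.1 (intensity trend, no covariates), with Benjamini-Hochberg adjustment over the 13599 genes with a mean of at least 0.5 FPKM. The threshold was an adjusted P-value of 0.05. Fold changes are on the log2(FPKM + 0.1) scale and understate changes of low genes. The procedure was tested on simulated data. The members and lists were chosen with earlier results of these data known. All members were named, and of each list the DE genes or, where there were none, the most abundant pair. Markers and other single genes were named by list. Comparisons of protein sequences were not made.

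Settings tried beside these were pseudocounts of 1 and 0.01, no filter, a mean of at least 1 FPKM, unscaled FPKM, TPM, quantile normalization, robust estimation, no intensity trend, a block for the replicate number, voom on the recovered reads, a gene length correction, and each replicate left out. Same-numbered control and case replicates correlated at 0.06, 0.1, and -0.05 in their deviations from the group means, so the numbers were not taken to pair the samples.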

Additional observations from a re-analysis of the deposited data

How the results depend on the processing

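*IGFBP3* was the 1 upregulated member under all 12 alternatives and without any 1 replicate (1 to 1). The downregulated members numbered 2 as reported, 0 with every gene above 0 tested (no filter), 1 without the intensity trend, 4 with TPM, 4 with voom, and 0 to 3 without 1 replicate. In the pathway lists 4 genes were upregulated as reported, 1 with no filter, 2 without the trend, 8 with voom, and 1 to 7 without 1 replicate, and 8 were downregulated as reported, 0 with no filter, 3 without the trend, 17 with TPM, 16 with voom, 4 with the gene length correction, and 0 to 13 without 1 replicate. Of all tested genes, 998 were upregulated as reported, 329 with no filter, 662 unscaled, 383 with TPM, 436 without the trend, and 56 to 1797 without 1 replicate. The 794 downregulated genes became 191 with no filter, 2387 with TPM, 416 without the trend, 1507 with voom, and 16 to 1655 without 1 replicate. The fewest calls came without a control replicate (101, 72, and 77 genes) or case replicate 3 (176), and the most without case replicate 2 (3452). Unscaled FPKM and TPM moved the median of all tested genes by -0.08 and -0.19. No member or pathway gene past the threshold changed direction. The marker genes were not followed through all settings. *PODXL*, *CD14*, and *VIM*, each the 1 tested gene of its list, lost their calls with no filter and held them with voom and the length correction. With the replicate number as a block, 848 genes were upregulated and 762 downregulated, 1 and 2 of them members. The block ended the call of *PHLPP1* and changed no other call among the tested members and the named pathway genes that were followed under it. The marker genes and some other single genes were not followed under the block. *IRS1* and *IGFBP4* lay close to the threshold. *IGFBP7*, with at most 2 reads in a library, was not detectable above a few reads at this depth.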

Other observations

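Of the 8 tested members, 5 passed an unadjusted P-value of 0.05 (limma), among them *IRS1* (0.0139) and *IGFBP4* (0.0166), as did 4495 of the 13599 tested genes. The ratio of *IGFBP4* to *IGFBP3* levels was 74.3, 79.5, and 80.8 in the control libraries and 36.3, 28.3, and 31.2 in the case libraries. The ratio of *IGFBP4* to *IGFBP6* levels was 2.91 ± 0.234 in the control libraries and 2.18 ± 0.0339 in the case libraries (SD, n = 3), without overlap. In the PI3K-AKT-mTOR list, *PIK3R2*, which encodes a regulatory subunit used by many cells, had at most 1 read in a library, and *DEPTOR* had at most 29 reads. Overlap of *PIK3R2* with exons of other genes was not examined, so how its reads were assigned is uncertain.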
